A study of Mus musculus with 6 samples.

Results

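Cytosolic ribosomal proteins are the protein components of the 60S and 40S subunits of the cytoplasmic ribosome. Their genes were taken here as the rows of a mouse gene count table whose symbol is Rpl, Rps, Rplp or Rpsp followed by a number and at most one of the letters a, x or y. The members were selected on their measured level, a mean of at least 5 CPM (counts of a gene divided by its library's total, scaled to 1e6) over 6 libraries. Of 76 rows with such a symbol, 66 passed, 43 of the large subunit and 23 of the small subunit, out of 9316 rows at that level and 25965 rows in all. Just inside the threshold lay Rps12 at 5.28 CPM and Rpl36 at 6.41 CPM, and just outside lay Rps6 at 4.56 CPM. The rows further below included Rps27, Rps13, Rpl38, Rps29, Rpl23a, Rps23, Rpl19 and Rps16, at 0.324 to 2.79 CPM.

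The libraries came from 6 BCR-ABL positive mouse cell lines, that is, lines carrying the fusion kinase of the Philadelphia chromosome. The 3 lines WT1 to WT3 are labelled Cdk6 wild type and the 3 lines KO1 to KO3 Cdk6 knockout, CDK6 being a cyclin D-dependent kinase of G1 phase. By the protocol, cells were electroporated with a Cas9 and GFP plasmid, either the control plasmid px458 or its version named hCDK6del with guides against CDK6, sorted for GFP and grown out from single cells, so each line is 1 clone. Loss of the protein was checked by Western blot, per the labels. The labels give 1 growth medium for all lines and no other treatment, time or animal age. The comparison of KO with WT lines asks which transcripts differ between clones labelled knockout and wild type.

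A ribosome joins 1 copy of almost every ribosomal protein with the ribosomal RNAs, so these genes are transcribed in all dividing cells and their mRNAs are usually among the most abundant. Most of these mRNAs start with a terminal oligopyrimidine (TOP) tract, a run of C and T at the very 5′ end, through which mTORC1 and LARP1 control their translation. The genes have given rise to a large number of processed pseudogenes, intronless copies elsewhere in the genome. A read that fits a gene and a copy equally well cannot be given to either without a further rule, and how such reads were counted is not given in the sources used here.

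The transcripts of these genes differ in how much of their sequence occurs nowhere else, which is shown here because the measured levels run with it. Below are the first 90 coding bases of 5 members, from the GENCODE M21 transcripts of GRCm38. Capitals mark each base that lies within a run of 50 bases found, on either strand, in an annotated transcript of another gene (1 transcript was read per member). Rpl8 (chr15:76904071-76906318) stands for members with mostly their own sequence, Rpl4 (chr9:64173387-64178562) and Rplp1 (chr9:61913283-61914510) for mixed ones, and Rpl11 (chr4:136049354-136053393) and Rps12 (chr10:23785183-23787383) for members whose coding sequence is shared throughout. The positions in brackets are the whole genes in the RefSeq table of GRCm38.
Rpl8: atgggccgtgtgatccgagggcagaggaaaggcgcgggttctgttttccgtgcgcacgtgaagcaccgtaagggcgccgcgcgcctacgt
Rpl4: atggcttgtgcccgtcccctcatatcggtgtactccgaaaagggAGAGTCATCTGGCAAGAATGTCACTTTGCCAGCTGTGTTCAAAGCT
Rplp1: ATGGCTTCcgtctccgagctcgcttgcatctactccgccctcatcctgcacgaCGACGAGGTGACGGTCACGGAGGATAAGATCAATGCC
Rpl11: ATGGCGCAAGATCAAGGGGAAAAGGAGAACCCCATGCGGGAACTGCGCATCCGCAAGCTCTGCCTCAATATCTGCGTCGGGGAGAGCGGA
Rps12: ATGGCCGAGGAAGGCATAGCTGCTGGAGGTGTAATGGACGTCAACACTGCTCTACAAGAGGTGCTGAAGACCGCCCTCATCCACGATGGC

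Library totals lay between 17859519 and 24108563 counts, and a floor of 3 counts corresponds to 0.124 to 0.168 CPM. Cdk6 itself lay at 39.4, 45.0 and 55.8 CPM in WT1 to WT3 and at 42.1, 72.6 and 40.4 CPM in KO1 to KO3. Its log2 fold change was 0.14 ± 0.29 (SE; edgeR adjusted p = 0.900), and it turned to -0.22 without KO2. Transcript level thus did not set the lines labelled knockout apart, and the deleted part of the gene is not given in the sources used here. Markers of the early B lineage were high, with Igll1 at 1087 CPM and Pax5 at 182 CPM. Cd3e, Cd4 and Cd8a of T cells were at 0 throughout, the 4 stromal genes summed to 0.00826 CPM and the 3 erythroid genes with a row to 0.276 CPM. Of 5 myeloid genes, which summed to 7.90 CPM, Itgam ran from 0.248 CPM in KO2 to 29.5 CPM in KO1. KO2 stood apart in 4 long stretches of chromosomes 6, 13 and 18, where the median log2 ratio of its genes to the mean of the other 5 libraries ran from -0.81 to 0.54. Each line gave 1 library, so tests measure the spread between clones, and intervals on shares cover counting error only.

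Together the 66 members held 2.07%, 2.27% and 2.03% of all counts in WT1 to WT3, and 2.12%, 1.99% and 2.05% in KO1 to KO3. The share was highest in WT2 (95% Wilson interval 2.27% to 2.28%) and lowest in KO2 (1.99% to 2.00%), and the groups overlapped at 2.13% ± 0.131 in WT and 2.05% ± 0.0618 in KO (SD, n = 3 each). Large subunit members held 1.26% ± 0.0728 in WT and 1.23% ± 0.0234 in KO, and small subunit members 0.868% ± 0.0585 and 0.828% ± 0.0446. The ratio of large to small subunit counts was 1.45 ± 0.0246 in WT and 1.48 ± 0.0684 in KO. It ran from 1.43 to 1.48 in 5 lines and was 1.56 in KO2.

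A few genes held most of these counts. The 3 most abundant, Rpl4, Rpl8 and Rps3, made up 28.6% of the members' summed mean CPM, and the top 10 made up 61.4%. Rpl4, which lines the exit tunnel of the large subunit, lay at 2571, 2800 and 2545 CPM in WT1 to WT3 and at 2690, 2751 and 2623 CPM in KO1 to KO3. The lines differed little in this gene, and the groups overlapped. Rpl8, a core protein near the peptidyl transferase centre, lay at 1821, 1901 and 1751 CPM in WT lines, and at 1735, 1781 and 1680 CPM in KO. Rps3, a protein at the mRNA entry channel, lay at 1505, 1724 and 1522 CPM in WT lines, and at 1571, 1456 and 1487 CPM in KO, highest in WT2 and lowest in KO2.

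**Figure D1:**
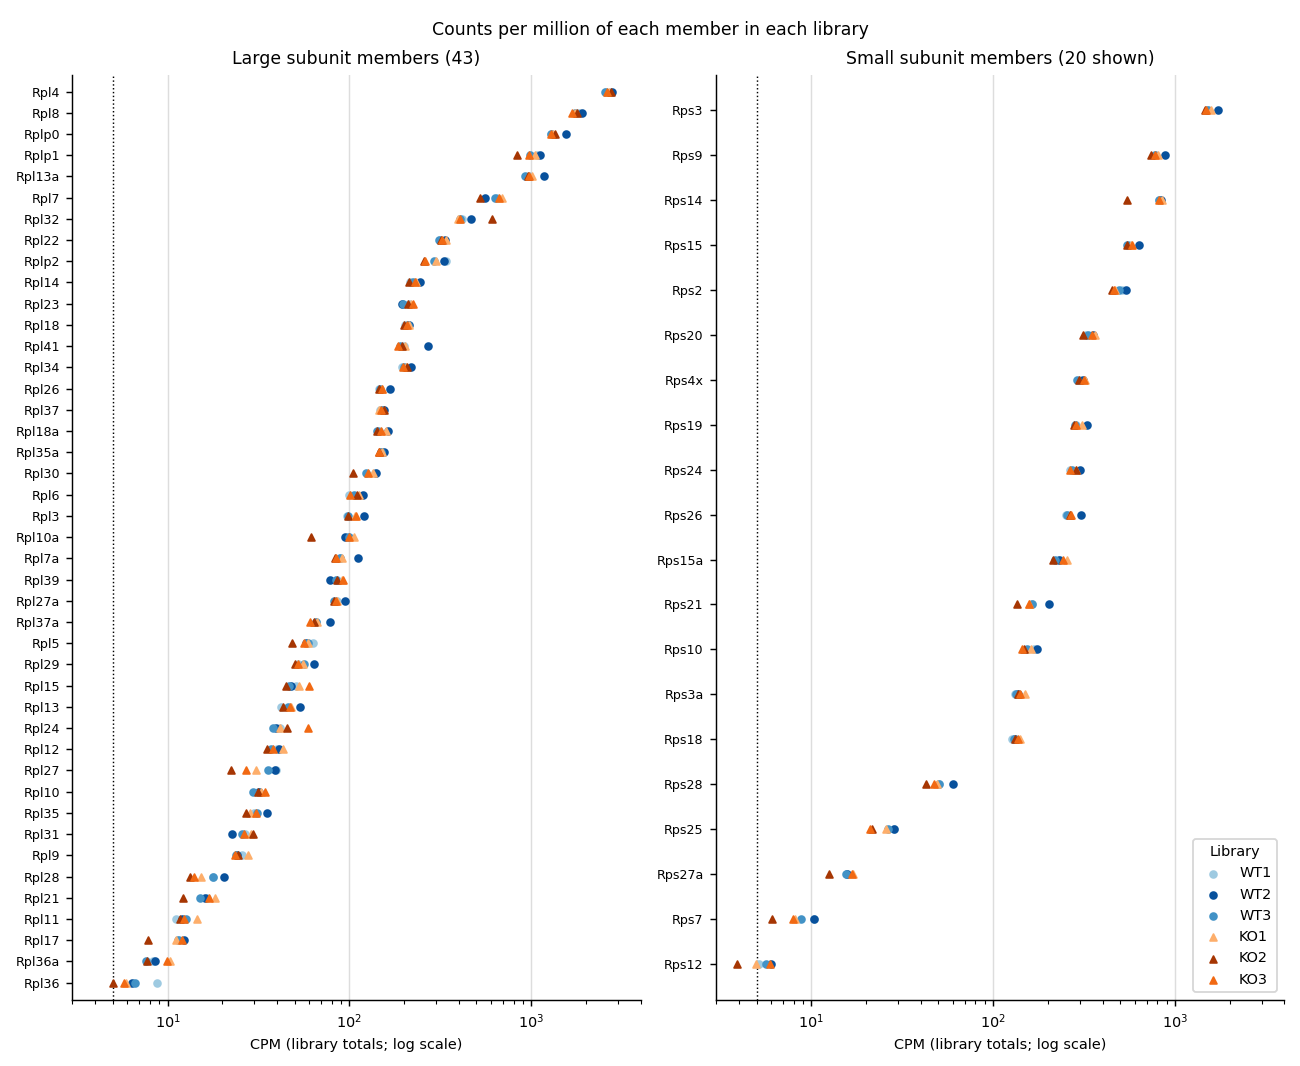
CPM (log axis) of 43 large and 20 small subunit members in each of the 6 libraries, circles for WT and triangles for KO lines, with the 5 CPM threshold dotted. Levels run from Rps12 at 5.28 to Rpl4 at 2663 mean CPM, and the 6 libraries of a member lie close together beside that range.

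Per length, the members lay far apart. Divided by the kilobases (kb) covered by a gene's exons, the mean level ran from 2.60 CPM per kb for Rps12 to 2012 CPM per kb for Rplp1. The median was 42.9 CPM per kb in the large subunit and 83.1 CPM per kb in the small subunit. Highest in the large subunit were Rplp1, a protein of the lateral stalk that recruits elongation factors, at 2012 CPM per kb, then Rpl4 at 1327 and Rpl8 at 1308. In the small subunit Rps15 led at 908 CPM per kb. Lowest in the large subunit were Rpl11, which joins Rpl5 and 5S rRNA in the 5S particle, at 4.59 CPM per kb, Rpl21 at 4.66 and Rpl36a at 5.29. The small subunit was lowest in Rps12, Rps7 at 4.28 CPM per kb and Rps27a, whose protein is made as a fusion with ubiquitin, at 7.87. With the longest transcript as the length, Rpl11 came to 13.5 and Rpl21 to 8.54 CPM per kb.

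The level per kb ran with the share of sequence that a gene has to itself. Of the 50-base windows of its transcript, the median member had 49.7% that occur in no other gene's transcripts, against a median of 96.4% over 76 genes of mitochondrial ribosomal proteins. The 10 rows under the threshold had a median of 20.0%. Across all 76 rows the rank correlation of level per kb with this share was 0.50 (Spearman; Pearson 0.50 on log2 levels), a description over genes that share libraries and, in part, sequence. It was 0.47 among 43 large and 0.50 among 23 small subunit members. Rows with under 20% of windows to themselves had a median of 15.1 CPM per kb (18 rows, 0.302 to 54.4), and rows with 80% or more a median of 111 CPM per kb (9 rows, 37.0 to 1327).

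**Figure D2:**
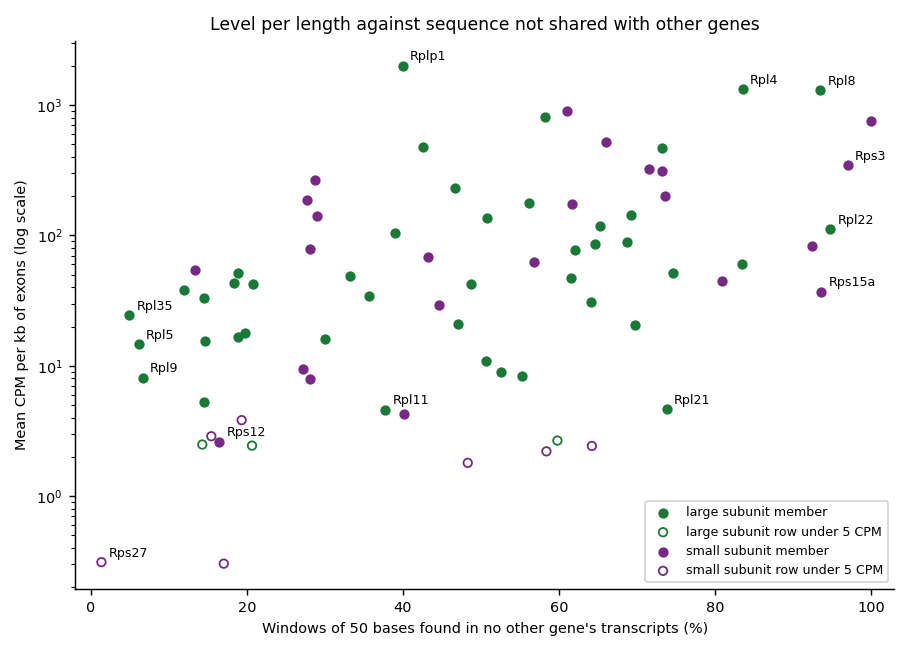
Mean CPM per kb of exons (log axis) against the percentage of 50-base windows found in no other gene's transcripts, for 66 members (filled) and the 10 rows under 5 CPM (open). No row under 20% lies above 54.4 CPM per kb, while rows of 80% or more lie between 37.0 and 1327.

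Within coding sequence the split was sharper. In 26 members no coding base lay outside the runs shared with another gene, and in 47 of 66 under 1% did, a boundary chosen after the values were seen. Those 47 had a median of 42.3 CPM per kb, and the other 19 a median of 326 CPM per kb. Rps3 had 97.0% of windows to itself and Rpl8 had 93.5%, while Rpl35 had 4.91%, Rpl5 6.16% and Rpl9 6.68%. The pattern over whole transcripts had exceptions. Rplp1, the highest per kb, had 40% of windows to itself, and Rpl21, near the lowest, had 73.8% but no unshared coding base. The coding split had exceptions too. Rplp0 had 0.736% of its coding bases unshared and lay at 812 CPM per kb, and Rps2 had 0.228% and lay at 266. Rps7 had 4.30% and Rps25 had 1.60%, and they lay at 4.28 and 9.41 CPM per kb. The rank correlation with the unshared coding share was 0.77 over the 76 rows. What part the counting of shared reads had in these levels was not tested.

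Rows of pseudogenes held few counts. The 131 rows that are named as ribosomal protein pseudogenes or are pseudogenes sharing a 50-base window with a member summed to 36.6 CPM, 0.175% of the members' sum, and 39 of them were at 0 in every library. Many copies had no row under their name, so this sum does not cover them. Of 120 pseudogenes that share a window with Rpl7a, 10 had a row. The highest were Gm6030, a pseudogene that shares windows with Rps24, at 8.97 CPM and Rps10-ps1 at 5.83 CPM. Rows that the symbol pattern leaves out gave further levels. Gnb2l1 (now Rack1), a scaffold protein of the small subunit, lay at 2186 CPM, Rpsa at 23.5 CPM, and Fau, made as a fusion with a ubiquitin-like part, at 3.16 CPM. Some paralogs exceeded their namesakes. Rps27l lay at 81.8 CPM against 0.324 CPM for Rps27, and Rpl36al at 28.4 CPM against 8.75 CPM for Rpl36a. The paralogs had more sequence to themselves, 77.6% of windows in Rps27l against 1.35% in Rps27, and 75.1% in Rpl36al against 14.5% in Rpl36a, and the part of this in the levels was not tested. Rpl22l1 lay at 55.4 CPM against 324 CPM for Rpl22, a protein with a known role in lymphocyte development, and Rpl10l and Rpl39l, paralogs of male germ cells, were at 0.

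In the comparison of KO with WT lines, no member passed the main test. All 66 were among the 10896 genes tested by edgeR's quasi-likelihood test, which called 0% of genes (0 of 10896) at an adjusted p under 0.05. The smallest edgeR adjusted p of a member was 0.479. At an unadjusted p under 0.05, 0 members were higher in KO and 6 were lower, among them Rpl27, Rpl28, Rplp2, Rps2 and Rps25, against 4.35% of all tested genes higher and 5.1% lower. DESeq2 called 1 member, Rpl27, against a background of 1.94% (218 of 11212 genes), and limma-voom called none.

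Direction was more often down than up, by little. The log2 fold change was below 0 in 48 of 66 members, 30 of 43 in the large and 18 of 23 in the small subunit, against 47.2% of all tested genes. The median was -0.04 in the large and -0.08 in the small subunit, against 0.01 over all tested genes. The lean depended on WT2. Leaving out WT2 alone gave medians of -0.0004 (large) and -0.02 (small), with 21 and 11 members higher in KO, and leaving out WT2 and KO2 together gave 0.01 and 0.0001, with 22 and 12 higher. Without KO2 alone it was kept, with medians of -0.06 and -0.07 and 13 and 7 members higher.

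**Figure D3:**
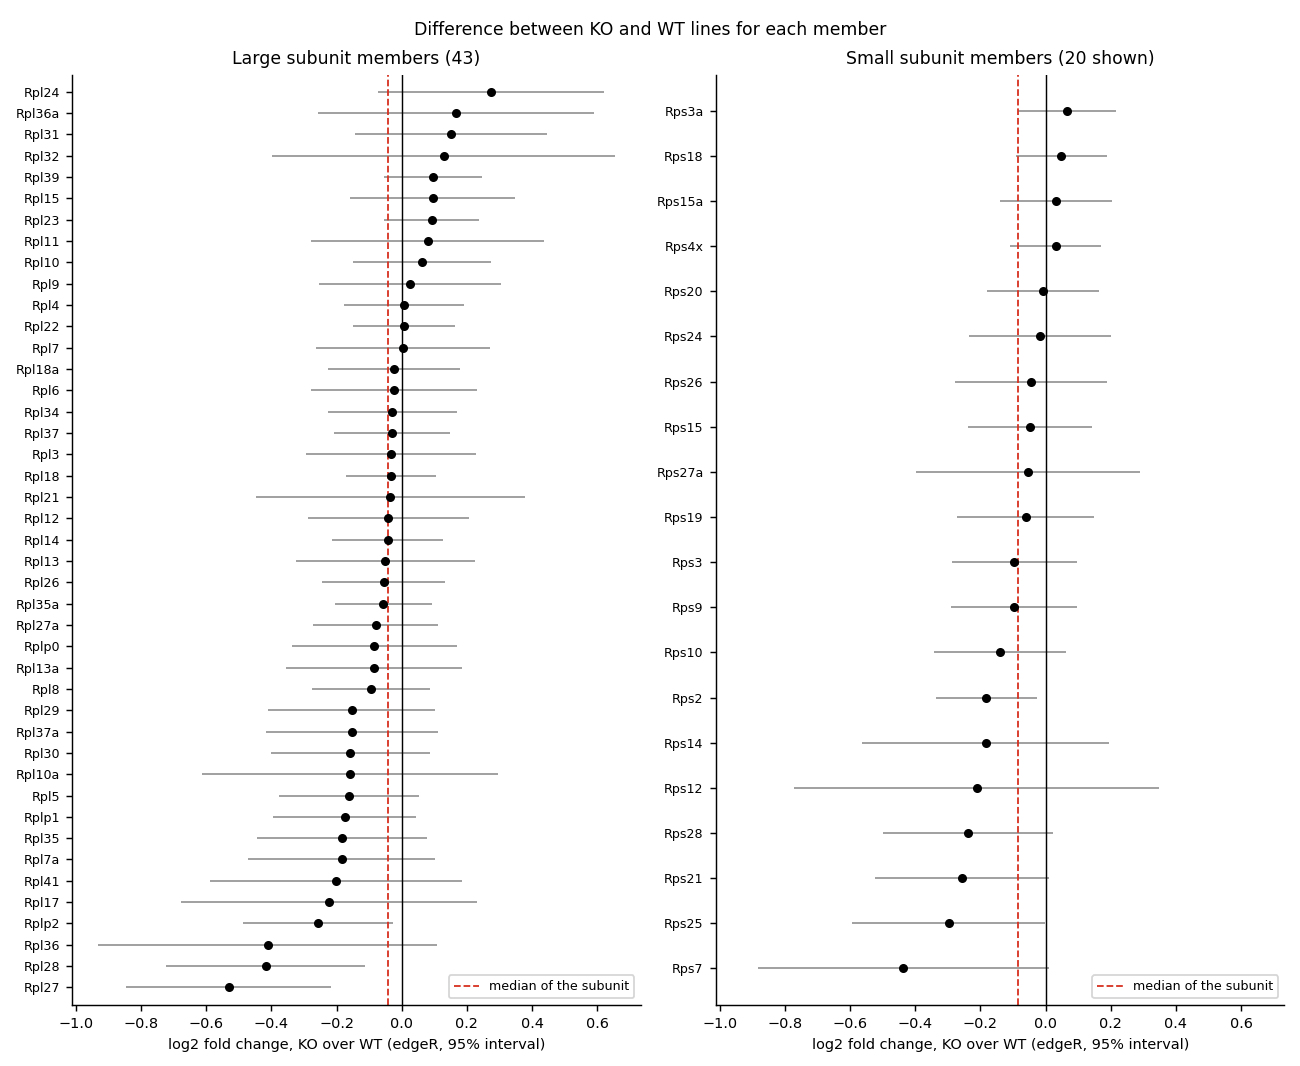
log2 fold change of KO over WT from edgeR for 43 large (left) and 20 small (right) subunit members, with 95% intervals and the median of all 43 or 23 dashed. Of all 66 members, 60 have intervals that include 0, and those of Rpl27, Rpl28, Rplp2, Rps2 and Rps25 are among the 6 that end below 0 before adjustment.

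Groups did not overlap in 12 members. By library totals all KO lines lay below all WT lines in 9 members, 3 large and 6 small, against 8.68% of tested genes, and above in 3, all small, against 10.6%. With TMM effective library sizes, which rescale totals so that most genes match, the counts were 11 below and 2 above, against 11% and 8.58%. The 2 above were then both of the large subunit, and the 3 small ones overlapped. By library totals the share below in the large subunit, 6.98%, was near that over all genes. In the small subunit 6 of 23 members lay below (26.1%) and 3 above by the same scaling.

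Of the members that lay lower in KO, Rpl27, a large subunit protein, differed most among those of at least 20 CPM. It lay at 39.3, 39.0 and 35.5 CPM in WT1 to WT3 and at 30.6, 22.3 and 27.2 CPM in KO1 to KO3, so that every KO line was below every WT line. Its log2 fold change was -0.53 ± 0.13 (SE; edgeR adjusted p = 0.479; DESeq2 adjusted p = 0.0356). Under 15 alternatives the value stayed between -0.63 and -0.41, with DESeq2 the only one of them to call it. None of its coding bases lay outside shared runs, and all 11 genes that share a window with it are pseudogenes.

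Rplp2, the partner of Rplp1 in the stalk, lay at 338, 332 and 291 CPM in WT lines, and at 299, 256 and 261 CPM in KO. The groups overlapped through KO1 and WT3, with a log2 fold change of -0.26 ± 0.09 (edgeR adjusted p = 0.508). Rplp1 had 1072, 1111 and 987 CPM in WT lines and 1049, 838 and 969 CPM in KO (-0.17 ± 0.09). Rplp0, the base of the stalk, had 1292, 1551 and 1290 CPM in WT lines and 1315, 1359 and 1279 CPM in KO (-0.08 ± 0.10). All 3 stalk genes had values below 0 with overlapping lines, and WT2 held the highest levels of Rplp0 and Rplp1.

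Rpl41, the smallest ribosomal protein, lay at 271 CPM in WT2 and at 186 to 201 CPM in the other 5 lines. Its log2 fold change of -0.20 ± 0.16 (edgeR adjusted p = 0.707) became -0.02 without WT2. Rpl7a also had its highest level in WT2, 112 CPM against 83.5 to 90.8 CPM elsewhere (-0.18 ± 0.12, and -0.06 without WT2). Rpl28 lay at 17.8 to 20.4 CPM in WT lines, and at 13.3 to 15.3 CPM in KO (-0.42 ± 0.12, edgeR adjusted p = 0.482), with no overlap. Rpl36, just above the threshold, did not overlap either, at 6.40 to 8.79 CPM in WT lines and 5.01 to 5.88 CPM in KO.

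In the small subunit the lower members included Rps25, Rps21 and Rps28. Rps25, a protein needed for some internal ribosome entry sites, lay at 28.4, 28.5 and 26.3 CPM in WT lines, and at 25.9, 21.7 and 21.1 CPM in KO (-0.30 ± 0.12, edgeR adjusted p = 0.528). Rps21 lay at 164, 202 and 164 CPM in WT lines, and at 159, 136 and 157 CPM in KO (-0.26 ± 0.11). Rps28 lay at 50.4 to 60.4 CPM in WT lines and 42.6 to 49.2 CPM in KO (-0.24 ± 0.11). In each of these 3 every KO line was below every WT line, KO2 lay lowest in Rps21 and Rps28, and WT2 lay highest in all 3. Without WT2 the log2 fold change was -0.14 for Rps21 and -0.14 for Rps28. Rps2, a protein of the mRNA entry site, did not overlap either, at 510, 540 and 493 CPM in WT lines and 470, 449 and 462 CPM in KO (-0.18 ± 0.06, edgeR adjusted p = 0.497).

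Among members higher in KO, differences were small or came from 1 line. Rpl24, which bridges the subunits, lay at 41.4, 39.6 and 37.9 CPM in WT lines, and at 41.3, 45.5 and 59.2 CPM in KO, with KO3 above the rest (0.27 ± 0.14, edgeR adjusted p = 0.584). Rpl31, a protein at the tunnel exit, lay at 22.8 to 26.8 CPM in WT lines and 26.4 to 29.6 CPM in KO. Rpl39, a small protein inside the tunnel, lay at 78.7 to 85.7 CPM in WT lines and 85.7 to 92.2 CPM in KO. By library totals, Rps3a and Rps18 were among the 3 members with all KO lines above all WT lines. Rps3a lay at 131.9 to 137.1 and 137.8 to 149.4 CPM (0.07 ± 0.06), and Rps18 at 127.3 to 132.4 and 132.5 to 140.4 CPM (0.05 ± 0.06), so that in both the groups came close. With TMM sizes KO3 fell below WT2 in both, so that the groups overlapped. Rps15a had a log2 fold change of 0.03, which turned to -0.01 without KO1.

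Members with set roles in signalling or disease did not pass the test either. Rpl5 lay at 63.3, 57.7 and 59.1 CPM in WT lines, and at 59.2, 48.1 and 56.3 CPM in KO (-0.16 ± 0.09). Its partner Rpl11 lay at 11.1, 12.1 and 12.7 CPM in WT lines, and at 14.5, 11.7 and 12.2 CPM in KO (0.08 ± 0.14). The pair bind MDM2 and so stabilise p53 when ribosome assembly fails. Rps19, the gene most often mutated in Diamond-Blackfan anaemia, lay at 285, 328 and 283 CPM in WT lines, and at 308, 277 and 287 CPM in KO (-0.06 ± 0.09). Rpl10, a late-joining protein, lay at 29.5 to 31.8 CPM in WT lines and 31.3 to 34.5 CPM in KO (0.06 ± 0.09), and Rpl22 at 311 to 337 and 318 to 340 CPM (0.01 ± 0.06). Rps6, the substrate of S6 kinase, was not a member, and lay at 4.88 to 5.14 CPM in WT lines and 3.67 to 4.70 CPM in KO (-0.28 ± 0.21, edgeR adjusted p = 0.691).

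Line by line, WT2 most often stood above the rest. WT2 had the highest of the 6 levels in 37 of 66 members (56.1%), 22 large and 15 small, against 11.4% of all tested genes. KO2 had the lowest level in 33 of 66 (50.0%), against 39.2% of all tested genes. In 19 members (28.8%) both held, against 4.29% of all tested genes. With TMM sizes WT2 was highest in 42 members (63.6%), against 13.4% of all tested genes. KO2 was then lowest in only 19 (28.8%, against 33.5% of all tested genes) and KO3 in 23 (34.8%, against 22.7%). The order of KO2 and KO3 thus depended on the scaling, and that of WT2 did not. The median log2 deviation of members from the WT mean was 0.07 in WT2 and -0.10 in KO2, and between -0.06 and 0.00 in the other lines by library totals. With TMM sizes it was 0.08 in WT2, -0.06 in KO2 and -0.11, the lowest, in KO3.

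**Figure D4:**
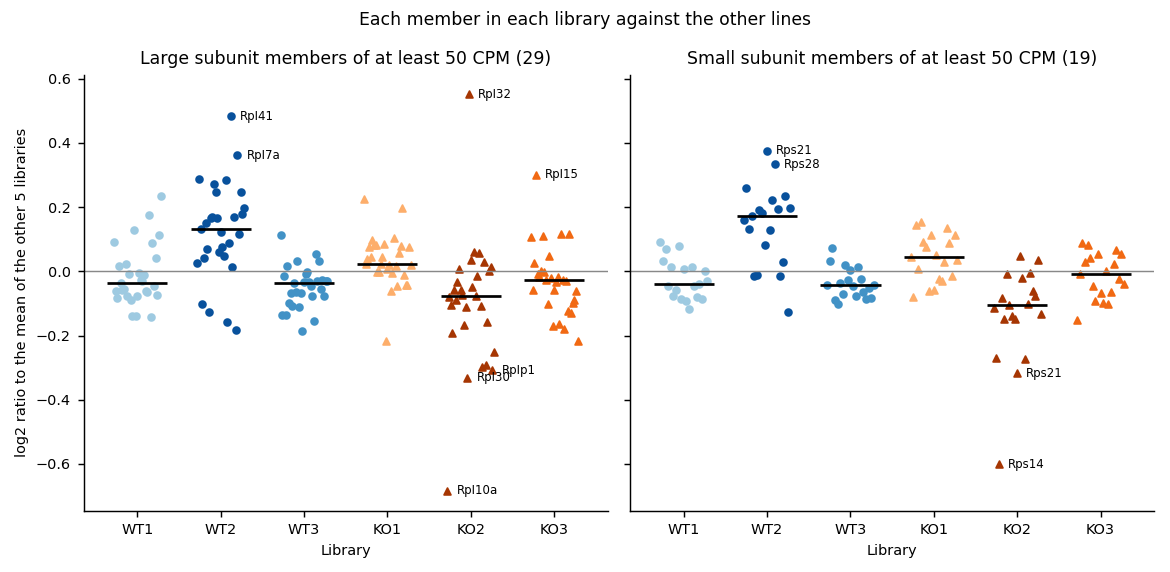
log2 ratio of each member of at least 50 CPM (29 large, 19 small) to the mean of the other 5 libraries, by library, with the median as a bar. Members at 0.3 or beyond are named: 4 in WT2, all higher, 6 in KO2, of which Rpl32 alone is higher, and Rpl15 in KO3.

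Single members moved further than the rest. Of 48 members of at least 50 CPM, 4 in WT2 and 6 in KO2 differed from the mean of the other 5 lines by 0.3 or more on the log2 scale, against 1 in KO3 and 0 in WT1, WT3 and KO1. The share of all genes beyond 0.3 is not given here. By library totals KO2 was also the highest line in 26.3% and the lowest in 39.2% of all tested genes, and WT2 in 11.4% and 14.2%. In WT2 these were Rpl41 (0.48), Rps21 (0.37), Rpl7a (0.36) and Rps28 (0.33). In KO2 they were Rpl32 (0.55), Rpl10a (-0.68), Rps14 (-0.60), Rpl30 (-0.33), Rps21 (-0.32) and Rplp1 (-0.31). In KO3 Rpl15 lay higher by 0.30.

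In KO2, 3 members lay within the stretches of shifted expression. Rpl32 (chromosome 6, in the stretch from 100228565 to 137837872, GRCm38) lay at 612 CPM in KO2 and at 397 to 466 CPM in the other 5 lines. Genes in the same 10 Mb bin had a median log2 ratio of 0.66. Rps14, a gene of the chromosome region lost in human 5q- syndrome, lay at 546 CPM in KO2 and at 813 to 849 CPM elsewhere, and the genes of its bin on mouse chromosome 18 had a median of -0.61. Rpl17, on the same chromosome, lay at 7.78 CPM in KO2 and at 11.2 to 12.3 CPM elsewhere, with its bin at -0.67. These 3 thus had log2 ratios near those of their bins. Without KO2 the KO to WT difference of Rpl32 turned from 0.13 to -0.14.

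**Figure D5:**
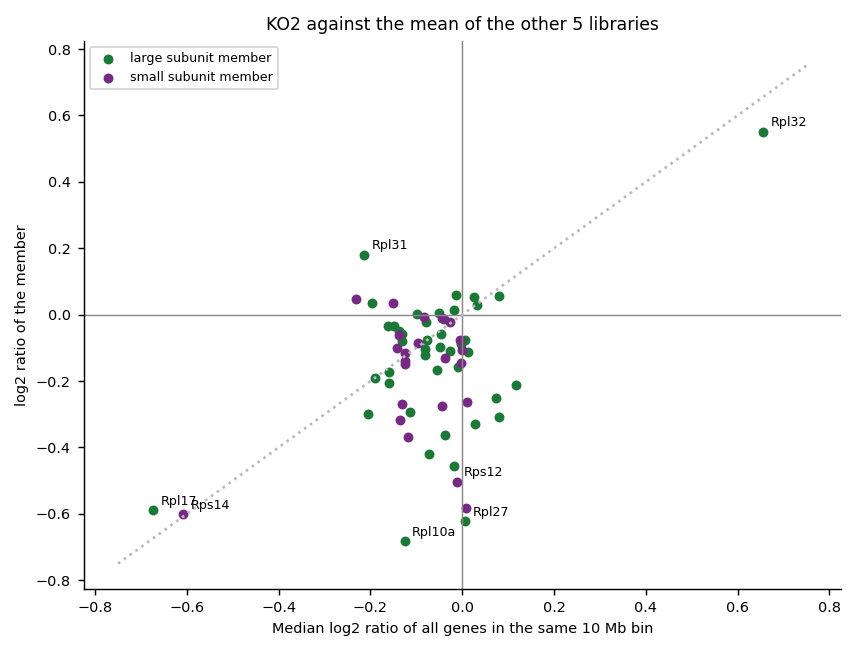
log2 ratio of each member in KO2 to the mean of the other 5 libraries against the median of its 10 Mb bin, with the line of equality dotted. Bin medians cover placed genes of at least 5 CPM, with all members left out. Rpl32, Rpl17 and Rps14 lie near that line, and Rpl10a, Rpl27 and Rps12 lie low in KO2 with bin medians close to 0.

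Other members lay low in KO2 in bins with medians nearer 0. Rpl10a (chromosome 17) lay at 61.9 CPM in KO2 and at 94.6 to 106 CPM elsewhere, while its bin had a median of -0.13. Rpl27 (log2 ratio -0.62), Rps7 (-0.58) and Rps12 (-0.50) had bin medians of -0.01 to 0.01. Across the 66 members the ratio and the bin median had a Pearson r of 0.42 and a Spearman rho of -0.0047, and a Pearson r of -0.09 over the 55 members of at least 20 CPM outside the stretches. The 4 members on the X chromosome, Rpl10, Rpl36a, Rpl39 and Rps4x, had log2 ratios of -0.21 to -0.01 in KO2, where Xist lay at 2.08 CPM against 716 to 1697 CPM in the other lines. Highest in KO2 after Rpl32 were Rpl31 (0.18) and Rpl37 (0.06), and in the small subunit Rps24 (0.05).

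Genes that act with ribosomal proteins were read from lists of other roles. None had a gene past the edgeR test. Carriers and chaperones of ribosomal proteins had a median log2 fold change of -0.17, with 10 of 13 below 0 and 4 lower at an unadjusted p under 0.05, against 5.1% of all tested genes. They included Grwd1, the chaperone of Rpl3, at 129 ± 2.51 CPM in WT lines and 104 ± 6.00 CPM in KO (-0.33 ± 0.06, edgeR adjusted p = 0.479), and Ipo5, an importin, at 818 ± 18.3 and 708 ± 12.2 CPM (-0.23 ± 0.05). Bccip and Ltv1, which escort Rpl23 and Rps3, had -0.21 and -0.21. Genes of mitochondrial ribosomal proteins lay lower in 66 of 76, with a median of -0.16 and 27 in which all KO lines were below all WT lines (35.5%, against 8.68% of all tested genes). Mrpl37 lay at 118 ± 1.58 CPM in WT lines and 97.9 ± 5.81 CPM in KO (-0.30 ± 0.07). DESeq2 called 2 of the 13 carriers and 2 of the 76 mitochondrial genes, against 1.94% of all genes.

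Translation factors and other genes listed as having TOP mRNAs were split evenly, 10 of 20 below 0, with a median of -0.02. Eef2, the translocase, lay at 5718 CPM in WT lines and 6374 CPM in KO on average (0.14 ± 0.08), and Eef1d at 330 and 288 CPM (-0.22 ± 0.06). Genes of mTORC1, S6 kinase and LARP1 had a median of 0.02 over 15 genes. Tsc1, a brake on mTORC1, lay at 43.5 ± 1.31 CPM in WT lines and 56.1 ± 6.24 CPM in KO (0.34 ± 0.09, edgeR adjusted p = 0.479). Larp1 lay at 552 and 567 CPM. Among genes downstream of the 5S particle, Trp53 lay at 280 and 279 CPM and Mdm2 at 72.8 and 76.6 CPM. Cdkn1a, a p53 target, lay at 53.8 CPM in KO2 and at 12.9 to 24.8 CPM in the other 5 lines. The snoRNA host Gas5 lay at 259 CPM in KO2 and at 307 to 386 CPM elsewhere.

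The start of the transcript, where the TOP tract lies, was read from RefSeq promoters of GRCm38.p6, which hold 250 bases before and 50 after each gene's start, for the 49 members with an entry. A run of at least 8 pyrimidines between 30 bases before and 50 after the start was present in 40 of 49 members (81.6%), against 30.5% of 7583 other tested coding genes and 32.3% of all 27025 genes with an entry. The 30 bases around the start of the promoter entry, 15 on each side, are shown for members that the comparisons above turn on, with runs of at least 5 pyrimidines in capitals. For Rpl7a that start lies inside the gene, which begins at 26910685 in the RefSeq table.
Rpl27 (chr11:101442230-101442259, + strand): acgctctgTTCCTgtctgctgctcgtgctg
Rplp2 (chr7:141447636-141447665, + strand): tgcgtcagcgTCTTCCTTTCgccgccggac
Rpl28 (chr7:4792950-4792979, + strand): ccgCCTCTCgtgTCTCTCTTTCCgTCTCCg
Rpl7a (chr2:26910792-26910821, + strand): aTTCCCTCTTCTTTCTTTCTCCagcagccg
Rps18 (chr17:33955651-33955680, - strand): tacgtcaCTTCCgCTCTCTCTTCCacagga
Rpl24 (chr16:55966260-55966289, + strand): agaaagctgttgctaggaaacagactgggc
Members below 0 and members above 0 in KO both held such runs, as Rplp2 and Rps18 show, and Rpl24 held none in this window. Of motifs sought on both strands of the whole promoter, the ETS core CCGGAAG occurred in 20 of 49 members (40.8%), against 21.8% of other tested coding genes and 9.93% of all genes. Its reverse complement, CTTCCGG, opens with 5 pyrimidines and so can overlap a pyrimidine run. The YY1 core AAGATGGC occurred in 4 members (8.16%), against 5.63% of other tested coding genes and 3.19% of all genes. The TATA box TATAAA occurred in 6 (12.2%, against 7.90% and 15.7%) and the E-box CACGTG in 5 (10.2%, against 12.3% and 8.09%), so that for both the side on which members lay depended on the background. A match of letters is a description and says nothing of binding.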

How the data were processed

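The deposited table holds raw counts per gene symbol, with 1 column for each of the 6 libraries and no normalization by the authors. RNA was prepared with a TruSeq kit, per the labels' protocols. Trim Galore, STAR, DESeq2 and the GRCm38 build are named, per the submitters' processing notes, while their versions, the counting program, its annotation and strand setting, and how it treated reads with several matches were not given in the sources used here. CPM used library totals. The 66 rows that repeat a symbol were kept, and 11635 rows were at 0 in every library.

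KO and WT were compared with edgeR 4.0.16 in R 4.3.3 (TMM, filterByExpr, robust quasi-likelihood F test, Benjamini-Hochberg over 10896 genes, two-sided, threshold 0.05), with DESeq2 1.42.0 and limma-voom 3.58.1 as alternatives. edgeR and DESeq2 were also run on simulated counts. Those counts drew each gene independently and held no line with shifted stretches such as KO2, so they cannot show how either test behaves with such a line. The 2 genotypes share the numbers 1 to 3. Deviations from the group means correlated, across genes, at 0.33, 0.64 and 0.46 for pairs 1, 2 and 3, each over the criterion of 0.1. WT3 with KO1 (0.36) and WT1 with KO3 (0.41) correlated about as much, and the labels name no shared culture, so these values do not single out the shared numbers. A fit with the number as a block was an alternative. Sequence sharing of 1 coding transcript per gene was counted in Python 3.11.15 against all GENCODE M21 transcripts, in windows of 50 bases, both strands, and places came from RefSeq tables of GRCm38. Stretches shifted in KO2 were runs of at least 3 bins of 10 Mb, each with at least 10 genes and a median of at least 0.3 in size, with an offset of 0.5 CPM.

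Members, lists and the stretches were chosen with earlier results of these data known. Named members were, in each subunit, the 4 with the largest rise and fall at 20 CPM or more, the 3 highest and lowest in KO2 and per kb, those on the X chromosome or in a shifted stretch, those of set roles or at the threshold, and up to 4 genes with the smallest p of other lists. Rpl28, Rps2, Rpl36, Rpl30, Rpl15, Rpl9, Rpl35, Rps3, Eef2, Larp1, Itgam and Xist were named after their values were seen. A few members and other genes are not reported here by name, and stay in all counts and medians.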

Additional observations from a re-analysis of the deposited data

How the results depend on the processing

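Alternatives were RLE size factors, library totals, DESeq2, limma-voom, other low-count filters, no robust estimates, the replicate block, and leaving out libraries. No genes were called in any edgeR or limma fit, and DESeq2 called 218 genes and 1 member. With the replicate block 0 genes were called, the subunit medians were -0.04 and -0.08, and no call changed. Leaving out 1 library each gave medians of -0.08 to -0.0004 (large) and -0.12 to -0.02 (small), with 10 to 21 large and 4 to 11 small subunit members higher in KO. The highest counts and the medians nearest 0 came without WT2. Without WT2 and KO2 together the counts were 22 and 12 and the medians 0.0059 (large) and 0.0001 (small). Without 1 library each, Rpl32 ran from -0.1366 (without KO2) to 0.2508, Cdk6 from -0.224 (without KO2) to 0.3056 and Rps15a from -0.0077 (without KO1) to 0.0816. Without WT2 and KO2 together Rpl32 was at -0.0654 and Cdk6 at -0.2449. Once the 10 most abundant other genes were left out of the total, the members' share was 2.13% in KO and 2.21% in WT, against 2.05% and 2.13% of the full total. With windows of 36 and 100 bases, added after the data were seen, the rank correlation of level and unshared sequence was 0.43 and 0.63. For low members such as Rps12 counting error adds to the spread between lines.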
